A study of Mus musculus with 9 samples.

Results

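The condyle of the temporomandibular joint, the knob of the lower jaw that turns against the skull, was set against the whole body of mouse embryos at embryonic day 16.5. The comparison took 3 condyle arrays and 3 whole body arrays of a series of 9 arrays, whose other 3 are of the fossa, the socket of the joint. All 9 samples carry the label embryo, age E16.5, and share a single entry for laser capture of frozen tissue, while strain, genotype, sex and the number of embryos behind an array are not given in the sources used here. The design text speaks of biological triplicates, but no label ties an array to an embryo, so p-values reflect only how far these arrays scatter, which may be technical. RNA was hybridised to an Affymetrix mouse array, and 18193 genes were tested. Levels below are log2 of the deposited intensity, 1 value per array in the order array 1, 2 and 3, and a difference is condyle minus whole body on that log2 scale with its standard error (SE).

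The condyle is a cartilage that grows at the tip of the jaw bone and is covered by fibrous tissue. Its chondrocytes secrete a matrix of collagen fibrils and sulfated proteoglycans, which calls for amino acids, for prolyl and lysyl hydroxylases that modify collagen in the endoplasmic reticulum, and for sulfate donors in the Golgi. Growth of such cartilage is known to be steered by fibroblast growth factor, Hedgehog and Wnt signals. A whole embryo body is dominated by other organs, among them liver, blood and muscle.

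Of the 18193 genes, 1699 (9.34%) were higher and 699 (3.84%) lower in condyle at a Benjamini-Hochberg adjusted p under 0.05 in limma, and 15795 did not pass. After quantile normalization, which gives every array the same distribution of values, 824 (4.53%) were higher and 808 (4.44%) lower, 8.97% in all, so the share of called genes that were higher went from 70.9% to 50.5%. Of these, 816 higher genes (4.49% of all tested) and 600 lower genes (3.3%) were called on both scales. In 19.8% of all genes the 3 condyle arrays lay above all 3 whole body arrays, and in 33.4% below them. A lack of overlap given for single genes below is to be read beside these shares. Leaving out 1 array left 1039, 1123 and 1118 higher genes without condyle arrays 1, 2 and 3 and 978 without whole body array 2, and 452, 462 and 443 lower genes without condyle arrays 1, 2 and 3. The deposited condyle values lay above those of the whole body in the upper part of the distribution. The 75th percentile was 4.81 to 4.90 on the condyle arrays and 4.35 to 4.54 on the whole body arrays, while the median over all genes of the difference was -0.03 as deposited and -0.00 after quantile normalization. Centring each array on its median moved that median by 0.12. The 18S ribosomal RNA control read 9.63, 9.32 and 5.86 on the condyle arrays and 13.47, 13.36 and 13.22 on the whole body arrays. The 3 prime minus 5 prime difference of the Gapdh control was 5.33, 5.64 and 6.86 in condyle and 6.52, 5.67 and 5.34 in whole body. That of the beta-actin control was 6.70, 6.52 and 6.71 in condyle and 5.90, 5.74 and 6.57 in whole body. The part of these control values in the results below was not tested. Xist, the RNA of the inactive X chromosome, read 11.37, 11.56 and 11.49 in condyle and 10.18, 4.04 and 6.52 in whole body, and the Y-linked Eif2s3y reached 8.84 on whole body array 3 and at most 3.54 on the other 5 arrays. The part of sex in the results was not tested.

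**Figure D1:**
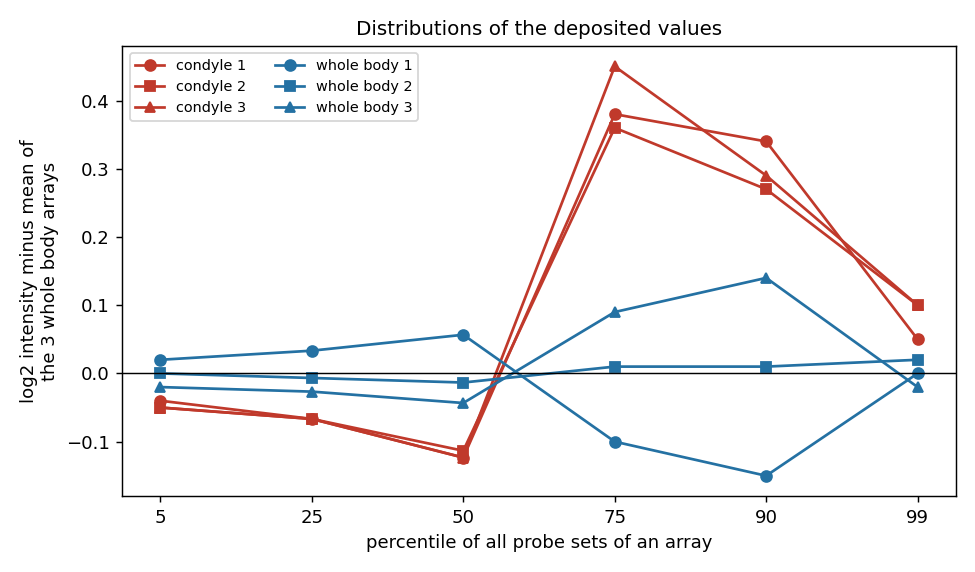
Percentiles of the deposited log2 values of each array, minus the mean of the 3 whole body arrays at that percentile (vertical axis, log2 units), against the percentile of all probe sets (horizontal axis). The condyle arrays (red) lay below the whole body arrays (blue) at the median and above them at the 75th percentile, where they read 4.81 to 4.90 against 4.35 to 4.54.

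Cartilage markers were read on the condyle arrays, which sets them against the whole body but does not check the condyle label against the fossa. The cartilage list mean was 7.59, 7.87 and 6.91 in condyle and 7.18, 7.71 and 6.28 in fossa. The median difference of condyle minus fossa was -0.02 as deposited and -0.46 after quantile normalization. In the cartilage list 18 of 25 genes passed as higher and 0 as lower, with 13 and 0 after quantile normalization, and the median difference was 2.57. Leaving out 1 array at a time gave 11 (without whole body array 1) to 18 higher. Acan, the core protein of the proteoglycan aggrecan, read 10.56, 11.10 and 10.19 in condyle and 5.36, 3.85 and 2.79 in whole body, and Sox9, the master transcription factor of chondrocytes, read 5.46, 6.42 and 5.36 against 3.82, 3.78 and 3.74 (difference 1.97 ± 0.33 SE, adjusted p = 0.0104). The arrays of each gene did not overlap between the groups. Col11a2 and Matn1 had differences of 2.34 ± 0.88 and 2.06 ± 0.61 that did not pass (adjusted p = 0.134 and 0.0696). All calls below against the whole body held after quantile normalization and with each of the 6 arrays left out in turn. The exceptions are calls with a value given that did not hold. Of 241 called genes looked at in this way, 144 held under all of these settings.

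Outside the cartilage list, the largest rises that held on both scales included genes of enzymes, a splicing protein and a ribosomal protein. Slc35e3, a member of a nucleotide sugar transporter family, read 7.47, 7.76 and 7.76 in condyle and 3.21, 2.87 and 3.64 in whole body (difference 4.42 ± 0.40, adjusted p = 0.00114). Tecr, which completes the elongation of very long fatty acids, read 7.15, 7.33 and 6.58 against 3.37, 3.36 and 2.91 (3.81 ± 0.31, adjusted p = 0.000816). Both lay near background in the whole body, above it on 2 of 3 arrays, so their differences are those of the measured values. Mindy1, a deubiquitinase gene, differed by 4.23 ± 0.41 (adjusted p = 0.0016), in the same direction at 5 of its 8 probe sets. Neat1, the RNA that scaffolds nuclear paraspeckles, differed by 4.66 ± 0.78 (adjusted p = 0.0107) at 1 of its 2 probe sets. Rpl12, a protein of the large ribosomal subunit, read 6.22, 6.37 and 6.54 and was at background on all whole body arrays. The signal of the probe set used was thus at least 9.14-fold higher. The mean over all measured ribosomal protein genes was 12.13 to 12.27 on the whole body arrays, far above this signal. Whether the probe set reads the main Rpl12 messenger was not tested. Panx3, a channel gene of maturing chondrocytes, read 10.99, 11.07 and 10.53 against 6.73, 6.67 and 7.42 at all 3 of its probe sets, but had an adjusted p = 0.053 without whole body array 2 and 0.0506 without condyle array 1. Pkdcc, a secreted kinase gene needed for growth of long bones, differed by 4.10 ± 0.86 (adjusted p = 0.0242) and was not called in 5 of the 6 fits that left out 1 array, with an adjusted p of up to 0.0713 without condyle array 2.

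Among the largest falls outside the liver, blood, heart and lens lists, most are still known as products of liver or gut. Fabp1, a fatty acid carrier of liver and gut, was at least 544-fold lower, Cps1 and Otc, enzymes of the urea cycle, at least 69.7-fold and 52-fold lower, and Igfbp1, a liver-made binding protein of insulin-like growth factors, at least 31.6-fold lower. All 4 were at background on every condyle array. S100a8, a calcium-binding protein of neutrophils, read 6.96, 3.18 and 3.60 in condyle and 11.53, 12.15 and 11.44 in whole body (-7.13 ± 0.96, adjusted p = 0.00507), with condyle array 1 the highest of the condyle arrays.

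The programmes of the cell were then read list by list against the 9.34% of all genes called higher and 3.84% called lower. Lists with the highest shares higher, beyond cartilage, were collagen folding and crosslinking (58.3%), RNA splicing factors (48.9%), amino acid supply (41.7%), Hedgehog (40.9%), and glycolysis and hypoxia response (40% each). The mitochondrial respiratory chain had 31.9% of its genes lower, and the proteasome 25.8%. After quantile normalization the amino acid list had 38.9% higher and the respiratory chain 34.7% lower, splicing factors went to 35.6% and collagen folding to 41.7% higher, while ER export, glycosaminoglycan, cilium and mitosis genes came to within 6 percentage points of the 4.53% of all genes.

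**Figure D2:**
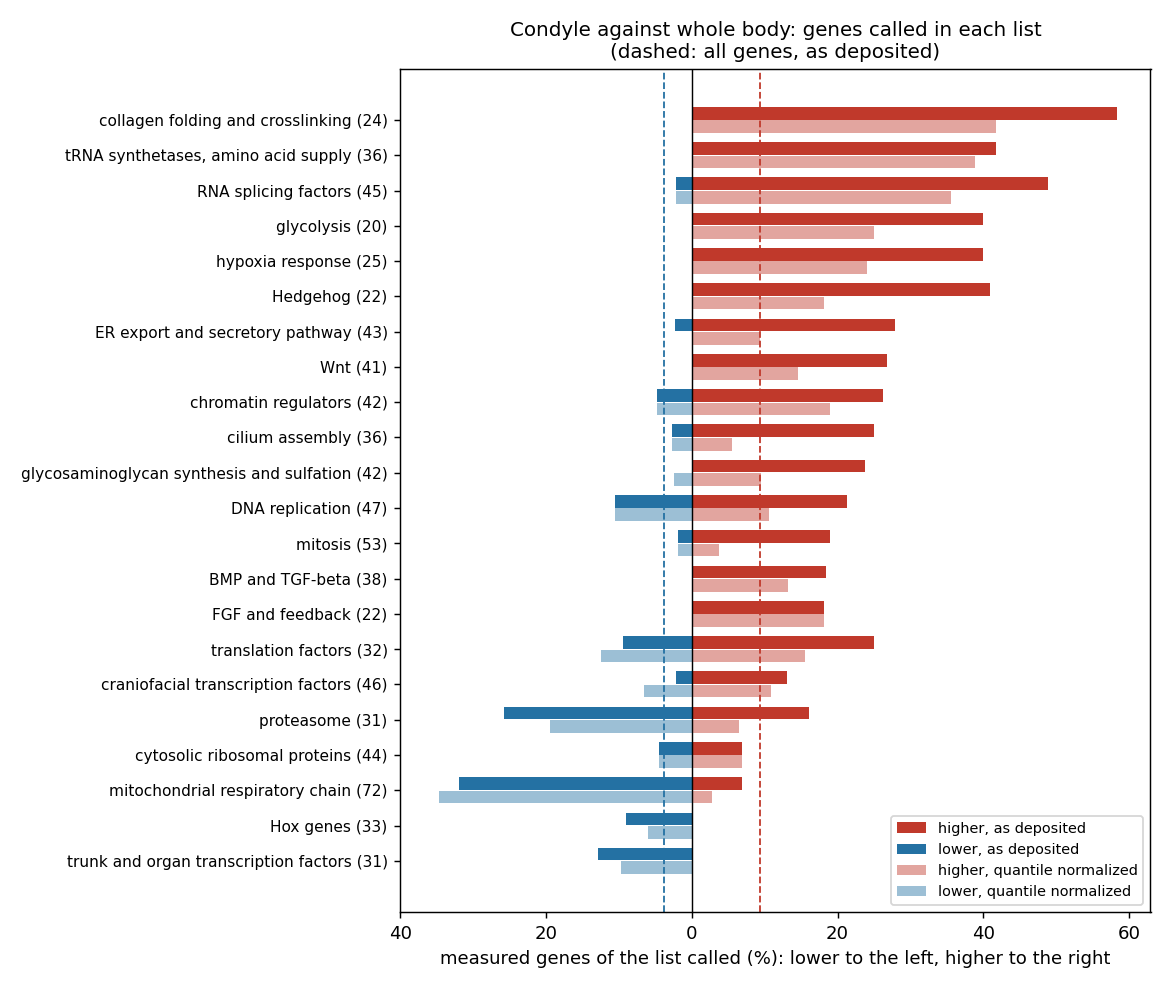
Share of the measured genes of each list (number in brackets) that were called higher in condyle (red, to the right) or lower (blue, to the left), in percent, as deposited (dark) and after quantile normalization (pale). Dashed lines mark the shares over all genes as deposited, 9.34% higher and 3.84% lower; collagen folding reached 58.3% higher and the respiratory chain 31.9% lower.

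Genes that supply and charge amino acids were higher in condyle. Of 36 measured aminoacyl-tRNA synthetases, amino acid synthesis enzymes, transporters and stress regulators, 15 were higher and 0 lower as deposited, and 14 and 0 after quantile normalization, with median differences of 0.77 and 0.52. Leaving out 1 array gave 9 (without condyle array 2) to 14 higher. By role, 8 of 19 synthetases, 4 of 7 enzymes of serine, glycine, proline and asparagine synthesis, 3 of 6 transporters and 0 of 4 stress regulators were higher. Shmt2, the mitochondrial enzyme that makes glycine from serine, read 9.90, 10.47 and 9.95 in condyle and 6.50, 6.48 and 5.77 in whole body, a 14.5-fold difference (3.86 ± 0.29, adjusted p = 0.00057) in the same direction at all 4 of its probe sets. Every condyle array lay more than 3 log2 units above every whole body array. Psat1, which acts before it in serine synthesis, read 10.87, 11.93 and 11.69 against 9.50, 8.85 and 9.23 (2.30 ± 0.41, adjusted p = 0.0136). Phgdh, the first enzyme of that pathway, differed by 2.05 ± 0.35 (adjusted p = 0.0113; 0.143 with the mean of its 4 probe sets). Glycine is the most frequent residue of collagen. Slc3a2 and Slc7a5, the 2 chains of a transporter of large neutral amino acids, were higher by 2.32 ± 0.35 (adjusted p = 0.00751) and 1.28 ± 0.08 (adjusted p = 0.00029). Slc7a5 was chosen for mention after its values were seen. Wars and Tars, synthetases for tryptophan and threonine, had differences of 2.08 ± 0.56 and 0.91 ± 0.31 that did not pass (adjusted p = 0.0538 and 0.103), and the stress regulator Chac1 one of 0.95 ± 0.48 (adjusted p = 0.246).

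Many genes of this list are known targets of the transcription factor ATF4, which answers amino acid shortage, and were put on it for that reason. Their promoters were searched for the letters TGATGNAA on both strands, a form of the site that factor is known to bind, in 300 bases around the start of each gene in RefSeq (250 before, 50 after). The letters were found in 10 of the 27 list genes with a promoter in the table (37%) and in 468 of 14452 of all genes tested (3.24%). They were found in 3 of 12 list genes called higher and in 7 of 15 not called, 25% and 46.7%. The 150 bases before the start are shown for 2 genes called higher and 1 not called, from build GRCm38.p6, 5′ to 3′ on the strand of the gene, with the matching letters in capitals, which were chosen for the match after the values were seen. Aars, alanyl-tRNA synthetase, lies on the plus strand at chr8:111033692-111033841, Gars, glycyl-tRNA synthetase, on the plus strand at chr6:55037851-55038000, and Asns, asparagine synthetase, on the minus strand at chr6:7693210-7693359.
Aars: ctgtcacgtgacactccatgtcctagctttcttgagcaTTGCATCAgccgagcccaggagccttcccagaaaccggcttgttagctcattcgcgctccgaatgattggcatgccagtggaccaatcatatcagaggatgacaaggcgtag
Gars: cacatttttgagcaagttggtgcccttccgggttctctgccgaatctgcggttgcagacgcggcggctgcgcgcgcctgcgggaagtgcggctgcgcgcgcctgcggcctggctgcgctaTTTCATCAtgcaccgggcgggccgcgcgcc
Asns: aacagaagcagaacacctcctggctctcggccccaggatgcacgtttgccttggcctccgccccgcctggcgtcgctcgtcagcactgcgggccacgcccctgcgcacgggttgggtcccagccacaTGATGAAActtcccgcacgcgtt
The matches begin 112, 30 and 23 bases before the start, on the reverse strand in the first pair and on the forward strand in Asns. Aars read 8.26, 8.31 and 8.56 in condyle and 6.35, 6.32 and 6.20 in whole body (2.09 ± 0.17, adjusted p = 0.000786). Gars read 10.15, 10.07 and 10.06 against 9.28, 9.49 and 9.05 (0.82 ± 0.18, adjusted p = 0.0297), and was not called in 5 of the 6 fits that left out 1 array, with an adjusted p of up to 0.0873 without condyle array 1. Asns read 9.66, 10.21 and 9.44 against 9.56, 9.64 and 9.57, with ranges that overlapped and a difference of 0.18 ± 0.23 (adjusted p = 0.604).

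Splicing factor genes were called higher on both scales, in smaller number after quantile normalization. Of 45 measured genes, 22 were higher and 1 lower, against 16 and 1 after quantile normalization, with median differences of 0.68 and 0.65, and leaving out 1 array gave 13 (without condyle array 2) to 20 higher. Prpf8, the central scaffold protein of the spliceosome, read 6.86, 6.74 and 6.89 in condyle and 3.10, 3.73 and 2.32 in whole body, where 2 of 3 arrays were above background (3.78 ± 0.31, adjusted p = 0.000841). Ddx39b, a helicase that helps to place the U2 particle on the branch site, read 11.11, 11.58 and 11.88 against 9.81, 9.45 and 9.37 (1.98 ± 0.27, adjusted p = 0.00537). Both had no overlap between the groups. Snrpe, a core protein of the small nuclear particles and the lower gene of the list, went the other way at 13.36, 13.32 and 13.47 against 14.11, 14.33 and 14.13 (-0.81 ± 0.08, adjusted p = 0.00185); it was singled out after the values were seen. U2af1 and Ptbp1 were called as deposited at 1.54 ± 0.32 and 2.45 ± 0.52 but not after quantile normalization (adjusted p = 0.0595 and 0.0536). Srsf5, a serine and arginine rich factor, differed by 1.94 ± 0.58 and did not pass (adjusted p = 0.0725).

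Of 42 chromatin regulators, 11 were higher and 2 lower, with 8 and 2 after quantile normalization. Smarca4, the ATPase of the SWI/SNF remodelling complex, read 7.81, 8.33 and 8.68 in condyle and 6.21, 6.34 and 6.22 in whole body (2.02 ± 0.21, adjusted p = 0.00198). Kmt2d, a histone H3 methyltransferase, was higher by 2.17 ± 0.28 (adjusted p = 0.00451) and Dnmt1, the maintenance DNA methyltransferase, by 1.68 ± 0.28 (adjusted p = 0.011). The lower pair, Hmga2 and Hmgb2, are small DNA-bending proteins and differed by -0.99 ± 0.20 and -1.46 ± 0.27 (adjusted p = 0.0226 and 0.0162). With the mean of its probe sets Hmga2 had an adjusted p = 0.197. These falls did not hold without condyle array 3 for Hmga2 (adjusted p = 0.0726) or whole body array 2 for Hmgb2 (adjusted p = 0.0558), and also not without condyle array 1. Dnmt3b, a methyltransferase that sets new marks, differed by 2.05 ± 0.64 and did not pass (adjusted p = 0.0822).

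The protein synthesis and turnover machinery did not move as 1 block. Of 44 ribosomal protein genes, 3 were higher and 2 lower, shares of 6.82% and 4.55% that lie near those of all genes, with a median difference of -0.03. Of 32 translation factors, 8 were higher and 3 lower, and leaving out 1 array gave 1 (without whole body array 2) to 7 higher and 3 lower throughout. The 3 lower factors are all subunits of initiation factor 3, which holds the small ribosomal subunit ready for the messenger. Eif3m read 7.72, 7.93 and 7.62 in condyle and 9.27, 9.29 and 9.28 in whole body (-1.52 ± 0.14, adjusted p = 0.00139), and Eif3e and Eif3h differed by -1.08 ± 0.14 (adjusted p = 0.0043) and -0.79 ± 0.14 (adjusted p = 0.0118), both named after their values were seen. Eif3b, a subunit of the same factor, was higher by 1.77 ± 0.28 (adjusted p = 0.00879), so subunits of 1 complex differed in opposite directions. Of 31 proteasome genes, 5 were higher and 8 lower, with 2 and 6 after quantile normalization. Within it, 0 of 14 genes of the 20S core were higher and 5 lower, while the 19S cap had 5 of 17 higher and 3 lower. Psmc6, an ATPase of the cap, read 9.60, 9.88 and 9.74 against 10.71, 11.05 and 10.88 (-1.14 ± 0.19, adjusted p = 0.011), and Psmc4, another ATPase of the same ring, was higher by 0.81 ± 0.12 (adjusted p = 0.0073). The proteasome counts fell to 1 higher without condyle array 3 and to 3 lower without condyle array 1.

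Genes of the mitochondrial respiratory chain were lower in condyle. Of 72 measured subunits, 23 were lower and 5 higher as deposited, and 25 and 2 after quantile normalization, with median differences of -0.39 and -0.47. Of these, 21 were lower on both scales, and leaving out 1 array gave 13 (without whole body array 2) to 22. Complex I, which takes electrons from NADH, had 13 of 34 subunits lower and 1 higher, complex III with cytochrome c 3 of 10 lower and 1 higher, and ATP synthase 3 of 15 lower and 0 higher. Complex IV was mixed, with 3 of 9 lower and 3 higher. Cox7a2, a small subunit of complex IV, read 12.83, 12.91 and 12.85 in condyle and 14.09, 14.24 and 14.11 in whole body, 2.44-fold lower (-1.29 ± 0.07, adjusted p = 8.97e-05). Ndufa4 encodes a small protein first assigned to complex I, and its name alone places it in the complex I counts above. It read 6.65, 6.91 and 7.04 against 8.35, 8.69 and 8.35 (-1.60 ± 0.19, adjusted p = 0.00312). Sdhb, the iron-sulfur subunit of complex II, named after its values were seen, was lower by -1.05 ± 0.12 (adjusted p = 0.00254). The 3 arrays of each group did not overlap in any of these genes, as in 33.4% of all genes in this direction. Cox8a and Uqcrc1 were called higher as deposited at 1.43 ± 0.28 and 1.37 ± 0.25 but not after quantile normalization (adjusted p = 0.069 and 0.0732). Among called lower genes of this list whose second brightest probe set was above background on at least 3 of the 6 arrays, 19 of 20 had that probe set lower too, compared with 83.8% over all lower genes. Over all higher genes this share was 76.8%, and it was 13 of 15 for splicing factors, 7 of 8 for the amino acid list, 4 of 7 for chromatin regulators, 3 of 6 for DNA replication, 3 of 5 for glycosaminoglycan synthesis and 2 of 4 for Wnt. In the citric acid cycle and fatty acid oxidation list 1 of 33 genes was higher, Idh3g (0.63 ± 0.10, adjusted p = 0.00811), and 1 lower, Fh1 (-0.87 ± 0.21, adjusted p = 0.0372), a call lost without any 1 array (adjusted p of up to 0.105 without condyle array 3).

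Glycolysis and the response to low oxygen ran the other way. Of 20 glycolysis genes, 8 were higher and 0 lower, with 5 and 0 after quantile normalization, and leaving out 1 array gave 5 (without whole body array 1) to 7 higher. Of 25 hypoxia genes, 10 were higher and 0 lower, with 6 and 0 after quantile normalization and 6 (without condyle array 1) to 8 with 1 array left out. Aldoa, which splits fructose bisphosphate, read 12.56, 11.94 and 12.22 in condyle and 10.08, 9.90 and 10.14 in whole body (2.20 ± 0.16, adjusted p = 0.000536) at all 5 of its probe sets. Pkm, the last enzyme of glycolysis, was 9.09-fold higher (3.18 ± 0.35, adjusted p = 0.00245), and Ldha, which makes lactate, read 12.18, 12.03 and 11.55 against 10.28, 10.11 and 9.88 (1.83 ± 0.24, adjusted p = 0.00446). No condyle array of these enzymes lay within the range of the whole body. Ddit4, an inhibitor of mTORC1 induced by low oxygen, read 8.08, 8.45 and 8.76 against 6.10, 6.01 and 6.43 (2.25 ± 0.21, adjusted p = 0.00145), and Car12, a carbonic anhydrase at the cell surface, differed by 3.80 ± 0.49 (adjusted p = 0.0043) with 2 of 3 whole body arrays above background. Pfkfb3 and Pfkl were called as deposited at 2.06 ± 0.49 and 1.85 ± 0.40 but not after quantile normalization (adjusted p = 0.107 and 0.0654). The hypoxia list shares Plod2, P4ha1 and P4ha2 with the collagen list. Tpi1, the triose isomerase of glycolysis, differed by 1.17 ± 0.31 and just missed the threshold (adjusted p = 0.0533).

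The core letters of a site for hypoxia-inducible factors, ACGTG on either strand, were found in the promoter windows of 16 of 21 hypoxia genes (76.2%), 13 of 19 glycolysis genes (68.4%) and 3776 of 14452 of all genes tested (26.1%). Both lists were drawn up from genes long known as targets, and in them the letters were found in 77.8% and 75% of the genes called higher and in 75% and 63.6% of those not called. The 150 bases before the start of Ldha, on the plus strand at chr7:46845654-46845803 in GRCm38.p6, are shown because they hold the letters at 3 places, in capitals.
Ldha: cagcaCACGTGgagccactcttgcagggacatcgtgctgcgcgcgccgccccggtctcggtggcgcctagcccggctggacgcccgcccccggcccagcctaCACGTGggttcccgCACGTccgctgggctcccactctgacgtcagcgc
A match on each strand overlaps in both CACGTG runs, which makes 5 matches in all, the farthest 145 bases and the nearest 34 bases before the start.

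Genes that fold and crosslink collagen had the highest share called higher among the lists other than cartilage. Of 24 measured genes, 14 were higher and 0 lower, with 10 and 0 after quantile normalization, a median difference of 1.97, and 7 (without condyle array 1) to 11 with 1 array left out. Serpinh1, the chaperone Hsp47 of procollagen, read 9.58, 9.14 and 9.25 in condyle and 5.41, 4.75 and 5.97 in whole body, a 15.5-fold difference (3.95 ± 0.39, adjusted p = 0.00163). Plod2, a lysyl hydroxylase that prepares collagen for crosslinks, read 7.97, 7.74 and 7.34 against 4.16, 4.82 and 4.19 (3.30 ± 0.47, adjusted p = 0.00627). Crtap, a partner of prolyl 3-hydroxylase, was higher by 3.04 ± 0.55 (adjusted p = 0.0143), and Plod3 was at least 5.5-fold higher over a whole body at background. In each of these 4 genes all condyle arrays exceeded all whole body arrays, and condyle array 1 was the highest of the condyle arrays. P3h3 was called at 2.59 ± 0.51, but not without condyle array 1 or 2 or whole body array 1 (adjusted p of up to 0.0621). P4hb, the shared subunit of prolyl 4-hydroxylase, just missed the threshold at 1.56 ± 0.42 (adjusted p = 0.051).

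The wider secretory route was less clear. Of 43 genes of ER export and folding, 12 were higher and 1 lower as deposited, but 4 and 0 after quantile normalization, 9.3% against 4.53% of all genes, and 3 without condyle array 1. Copa, a coat protein of vesicles that return from Golgi to ER, held throughout at 10.55, 9.82 and 10.21 in condyle and 8.10, 7.76 and 7.83 in whole body (2.30 ± 0.19, adjusted p = 0.000816). Sec31a and Kdelr1 were called as deposited at 2.23 ± 0.53 and 2.16 ± 0.55 but not after quantile normalization (adjusted p = 0.139 and 0.0756). Of 42 genes of glycosaminoglycan synthesis and sulfation, 10 were higher and 0 lower, but 4 and 1 after quantile normalization and 3 higher without condyle array 2. Slc26a2, the sulfate transporter of chondrocytes, held throughout at 8.5, 8.59 and 7.79 against 6.07, 5.37 and 6.14 (2.43 ± 0.30, adjusted p = 0.00361). Chst11 and Papss2, a chondroitin sulfotransferase and a synthase of the sulfate donor, were called as deposited at 2.25 ± 0.49 and 2.15 ± 0.55 but not after quantile normalization (adjusted p = 0.0535 and 0.122).

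Col6a1, Col6a2 and Col6a3, which encode chains of collagen VI, were higher. Of 29 genes of fibrous tissue and tendon, 8 were higher and 3 lower, with 7 and 3 after quantile normalization, and 0 were lower without condyle array 3 or whole body array 2. Col6a1, a chain of the microfibrils of the pericellular matrix, read 10.83, 10.16 and 9.60 in condyle and 6.51, 6.39 and 7.47 in whole body (3.41 ± 0.38, adjusted p = 0.00253), and Col6a2 and Col6a3, its partner chains, differed by 2.87 ± 0.26 (adjusted p = 0.00133) and 2.56 ± 0.26 (adjusted p = 0.00193). Bgn, a small proteoglycan, was higher by 3.09 ± 0.31 (adjusted p = 0.00185). Tnmd, a marker of mature tendon, was lower at 5.53, 3.74 and 4.36 against 7.08, 7.04 and 7.08 (-2.53 ± 0.48, adjusted p = 0.0167), a call lost without condyle array 3 (adjusted p = 0.0549) or whole body array 2 (adjusted p = 0.0518). Mmp2, a gelatinase, was 11.5-fold higher (3.52 ± 0.38, adjusted p = 0.00227). It was among 4 higher and 0 lower in the list of 34 proteases and inhibitors, 11.8% higher against 9.34% of all genes. That list had 3 higher and 2 lower after quantile normalization, 1 and 1 without condyle array 1, and 1 and 0 without condyle array 2. Itgb5, an integrin chain that binds vitronectin, read 9.36, 9.76 and 9.09 against 6.67, 6.54 and 6.75 (2.75 ± 0.24, adjusted p = 0.00111), and Vtn, the vitronectin gene, made in liver, was at least 6.59-fold lower.

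Among growth factor signals, genes of several receptors were higher. In the fibroblast growth factor list 4 of 22 genes were higher and 0 lower on both scales and with each array left out, and 3 of the 4 are receptors. Fgfr1 read 7.04, 7.08 and 6.48 in condyle and 3.15, 4.03 and 3.89 in whole body (3.18 ± 0.31, adjusted p = 0.00169). Fgfr2 read 8.92, 9.48 and 8.39 against 3.65, 5.66 and 6.19 (3.76 ± 0.63, adjusted p = 0.0108), with whole body array 1 the lowest of its group. Fgfr3, which restrains chondrocyte division, read 7.42, 7.37 and 7.17 against 3.10, 2.84 and 3.96 (4.02 ± 0.34, adjusted p = 0.000894), with 2 of 3 whole body arrays above background and 1 of its 2 probe sets in this direction. All 3 receptors had no overlap between groups. Of 7 measured ligands, 0 were called, and of 10 feedback inhibitors and targets 1, Spred2 (2.50 ± 0.43, adjusted p = 0.0113; 0.083 with the mean of its probe sets). Spry2, a feedback inhibitor, differed by -1.13 ± 0.36 and did not pass (adjusted p = 0.0839).

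Of 22 Hedgehog genes, 9 were higher and 0 lower as deposited, 4 and 0 after quantile normalization, and 4 (without condyle array 1) to 8 with 1 array left out. Gli2, the main activator among the Gli factors, read 8.22, 8.63 and 7.96 in condyle and 5.76, 6.18 and 6.23 in whole body (2.21 ± 0.24, adjusted p = 0.0025). Ptch1, the receptor and a target of the pathway, read 11.23, 11.45 and 10.59 against 9.51, 9.92 and 8.84 (1.67 ± 0.38, adjusted p = 0.0315), a call lost in 4 of the 6 fits that left out 1 array (adjusted p of up to 0.0926 without condyle array 1). Gli1, the most direct target, read 4.88, 5.47 and 5.27 over a whole body at background, at least 4.06-fold higher, but did not pass (adjusted p = 0.0658). Signals through this pathway pass the primary cilium, and of 36 cilium genes, some of them also on the Hedgehog list, 9 were higher and 1 lower as deposited but 2 and 1 after quantile normalization. Evc, a protein at the cilium base that passes on the signal, was at least 3.64-fold higher, and Ift88, a carrier inside cilia, higher by 1.72 ± 0.30 (adjusted p = 0.0124). Both held throughout.

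Of 41 Wnt genes, 11 were higher and 0 lower as deposited, 6 and 0 after quantile normalization, and 5 without whole body array 3. Receptors made up 6 of the 11, secreted inhibitors 2, intracellular genes 3 and ligands 0 of 7 measured. After quantile normalization 2 of 17 receptors, 2 of 9 secreted inhibitors and 2 of 8 intracellular genes were higher. Lrp6, a co-receptor, read 7.35, 7.34 and 6.53 in condyle and 4.04, 4.55 and 4.72 in whole body (2.64 ± 0.30, adjusted p = 0.00277), and Sfrp2, a secreted inhibitor, 10.67, 10.37 and 9.55 against 7.07, 7.21 and 7.84 (2.83 ± 0.43, adjusted p = 0.00811). Axin2, a target of the pathway, was called as deposited at 2.37 ± 0.55 but not after quantile normalization (adjusted p = 0.0947). Of 38 genes of BMP and TGF-beta signalling, 7 were higher and 0 lower, with 5 and 0 after quantile normalization and 4 without condyle array 1. Tgfbi, a matrix protein induced by TGF-beta, read 11.78, 12.28 and 11.47 against 9.79, 9.49 and 9.88 (2.12 ± 0.23, adjusted p = 0.00256), and Ltbp3, which stores latent TGF-beta, was higher by 1.61 ± 0.26 (adjusted p = 0.0102). In the insulin-like growth factor axis 4 of 20 genes were higher and 1 lower, with 1 higher without whole body array 2. Irs1, the adaptor of the receptors for insulin and its relatives, read 10.03, 9.83 and 9.93 against 7.77, 7.70 and 8.22 (2.04 ± 0.15, adjusted p = 0.000561). Igf2 differed by 1.79 ± 0.53 and did not pass (adjusted p = 0.0693). Of 41 axon guidance genes 6 were higher (14.6% against 9.34% of all genes) and 0 lower, with 4 and 1 after quantile normalization. The higher genes included Plxnb2, a semaphorin receptor (2.21 ± 0.30, adjusted p = 0.00501), and Ephb3, an ephrin receptor (2.03 ± 0.25, adjusted p = 0.00378). The Notch list had 2 of 21 genes higher, 9.52% and near the share of all genes, and 1 after quantile normalization. The retinoic acid list had 2 of 17 higher and 2 lower, 0 and 1 after quantile normalization, and 0 higher without condyle array 1 or 2 or whole body array 3. Rbp4, the retinol carrier made in liver, was lower by -3.74 ± 0.36 (adjusted p = 0.00145).

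**Figure D3:**
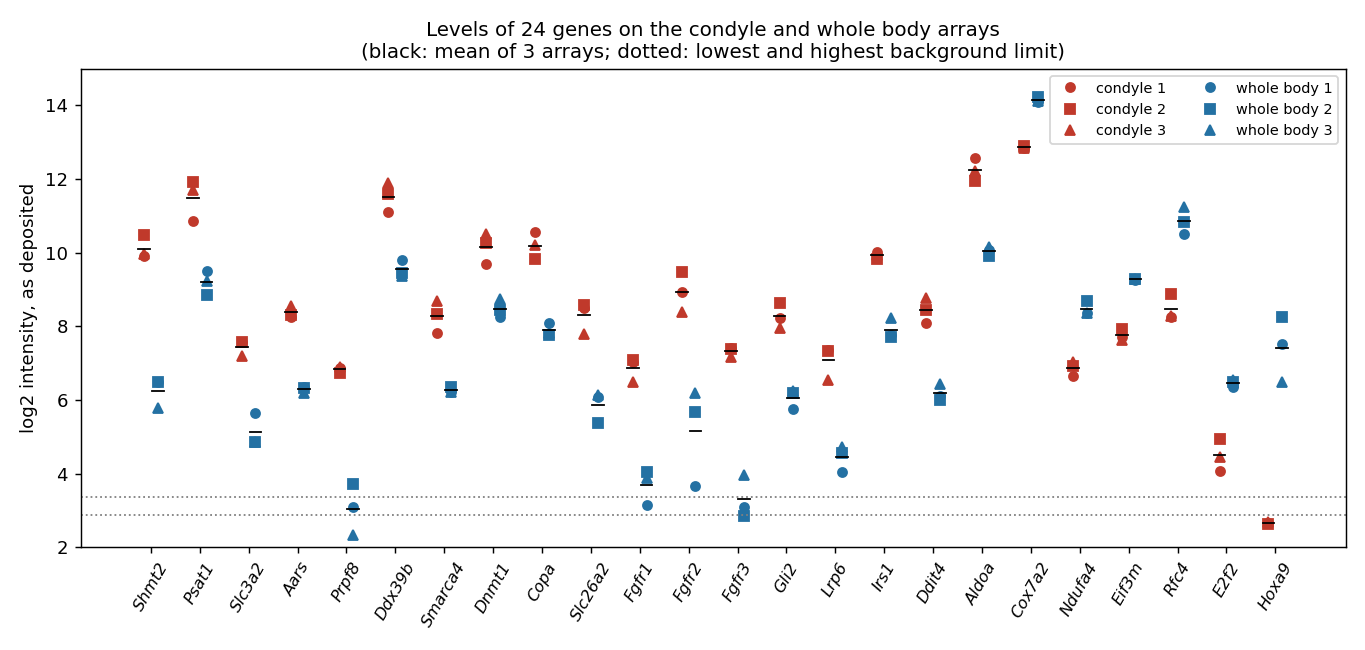
Log2 intensity as deposited (vertical axis) of 24 genes named in the text, with 1 symbol per array for the condyle (red) and the whole body (blue), black bars at the mean of 3 arrays and dotted lines at the lowest and highest background limit of the 6 arrays. In each gene the 3 condyle arrays lie apart from the 3 whole body arrays, above them from Shmt2 to Aldoa and below them from Cox7a2 to Hoxa9.

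Cell cycle genes gave no single direction. Of 47 DNA replication genes, 10 were higher and 5 lower as deposited and 5 and 5 after quantile normalization, and counts fell to 6 higher without condyle array 2 and to 1 lower without whole body array 2. Rfc4, a subunit of the clamp loader, read 8.25, 8.89 and 8.29 in condyle and 10.52, 10.83 and 11.24 in whole body (-2.39 ± 0.25, adjusted p = 0.00203). Tk1, thymidine kinase, went the other way at 6.70, 6.91 and 6.19 against 4.51, 4.45 and 4.75 (2.03 ± 0.21, adjusted p = 0.00187), as did Pole, the leading strand polymerase (1.89 ± 0.15, adjusted p = 0.000773), which was above background on 1 of 3 whole body arrays. Pcna, the sliding clamp, named after its values were seen, was lower by -1.21 ± 0.29 (adjusted p = 0.0383), a call lost without any 1 array (adjusted p of up to 0.109 without condyle array 3). Of 53 mitosis genes 10 were higher and 1 lower as deposited but 2 and 1 after quantile normalization. Ncapd2, a condensin subunit, held throughout (2.06 ± 0.26, adjusted p = 0.00412). Of 22 G1 genes 4 were higher and 2 lower, 1 and 2 after quantile normalization, and 1 higher without condyle array 2 or 3. E2f2, a factor that opens S phase and is known for high levels in red cell precursors, read 4.08, 4.95 and 4.46 against 6.36, 6.49 and 6.55 (-1.97 ± 0.22, adjusted p = 0.00272).

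A few patterning genes differed. Of 46 craniofacial transcription factors, 6 were higher and 1 lower, with 5 and 3 after quantile normalization, shares higher of 13% against 9.34% of all genes as deposited and of 10.9% against 4.53% after it. Pax9, a factor of jaw and tooth, read 6.51, 6.97 and 6.83 in condyle and 3.67, 4.17 and 2.90 in whole body (3.19 ± 0.30, adjusted p = 0.00139), in this direction at 1 of its 3 probe sets, with 2 of 3 whole body arrays above background. Dlx1 and Dlx5, which shape the jaw arches, were higher by 2.20 ± 0.34 (adjusted p = 0.00788) and by at least 2.12-fold, and Twist1 and Six2, factors of head mesenchyme, by 1.88 ± 0.27 (adjusted p = 0.00647) and 1.87 ± 0.31 (adjusted p = 0.0104). Hox genes pattern the trunk and limbs and are known to be silent in the first arch that forms the jaw. Of 33 measured, 0 were higher and 3 lower (9.09% against 3.84% of all genes), with 0 and 2 after quantile normalization. At background in both groups were 12 of the 33, which could hardly be called either way. Hoxa9 read 2.65, 2.64 and 2.69, at background, against 7.53, 8.24 and 6.48 and was at least 22.9-fold lower, and Hoxc8 was at least 6.41-fold lower. Hoxa5 was above background on all 6 arrays, at 5.83, 5.78 and 5.85 against 7.89, 7.91 and 7.27 (-1.87 ± 0.48, adjusted p = 0.0461; 0.0511 after quantile normalization). Its call was lost in every fit that left out 1 array (limma adjusted p of up to 0.127 without whole body array 2). Of 31 trunk and organ factors 0 were higher and 4 lower (12.9%), and 1 lower without condyle array 3, while 14 were at background in both groups. Hnf4a, a factor of liver and gut, was lower by -3.18 ± 0.28 (adjusted p = 0.00104).

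Further lists were read in the same way. Psap, the precursor of lysosomal saposins, read 9.16, 8.60 and 9.15 in condyle and 6.23, 5.74 and 6.01 in whole body (2.98 ± 0.24, adjusted p = 0.000731), among 5 higher and 1 lower of 33 lysosome and autophagy genes. After quantile normalization 2 were higher, 6.06% against 4.53% of all genes, and 1 of 3 higher calls had the same direction at the second brightest probe set. The lower one, Map1lc3b, depended on the probe set: -1.66 ± 0.12 at the brightest (adjusted p = 0.000507) but 0.49 with the mean of its 4 probe sets (adjusted p = 0.169). Of 20 cholesterol synthesis genes 3 were higher (15%) and 0 lower, with 2 and 0 after quantile normalization. Among them Sqle, squalene epoxidase (1.73 ± 0.13, adjusted p = 0.000536), and Sc5d, a sterol desaturase (2.82 ± 0.28, adjusted p = 0.00178), both held throughout. Only 1 higher call of this list had a second brightest probe set above background, and that probe set did not share the direction. Of 40 actin genes 7 were higher (17.5% against 9.34% of all genes) and 2 lower, with 5 and 3 after quantile normalization. Of 22 chaperones 4 were higher (18.2%) and 1 lower, with 2 and 1 after quantile normalization and 1 higher without condyle array 2. Bag3, a co-chaperone, held throughout (1.43 ± 0.16, adjusted p = 0.00266). Of 28 immediate early genes 4 were higher (14.3%) and 0 lower, with 2 higher after quantile normalization and 1 without condyle array 2. Myc was called as deposited at 1.81 ± 0.41 but not after quantile normalization (adjusted p = 0.116). Of 23 interferon genes 1 was higher, Ifitm2, not after quantile normalization (adjusted p = 0.0811), and 1 lower, Rsad2, at 4.88, 3.96 and 4.01 against 7.73, 9.02 and 9.38 (-4.43 ± 0.90, adjusted p = 0.0214; up to 0.0684 with 1 array left out, without whole body array 2). These interferon counts are 4.35% each way, against 9.34% higher and 3.84% lower of all genes. Of 23 imprinted protein genes 2 were higher (8.7%), Gnas and Plagl1, and of 18 long noncoding RNAs 2 (11.1%), Neat1 and Snhg4. Both shares lie near the 9.34% of all genes. Gnas (1.21 ± 0.24), Plagl1 (0.74 ± 0.19) and Snhg4 (1.97 ± 0.52) each lost the call without 1 array or more (adjusted p of up to 0.0611 without condyle array 1, 0.123 without whole body array 2 and 0.131 without condyle array 3). With the mean of all probe sets Gnas differed by only 0.10 and Plagl1 by 0.12 (limma adjusted p = 0.556 and 0.388).

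In bulk tissue, fewer cells of a type and less RNA per cell cannot be told apart, and markers of other tissues were read with that limit. Of 22 liver genes 18 were lower and 0 higher, of 17 erythroid genes 11 and 0, of 16 heart genes 8 and 0, and of 11 lens genes 4 and 0. The mean over the liver list was 3.31 to 3.48 on the condyle arrays and 8.55 to 9.22 on the whole body arrays. The erythroid gene Hbb-y was not low on all condyle arrays, at 14.98, 11.95 and 14.46 against 15.15, 15.08 and 14.96. The skeletal muscle list had 5 of 37 genes lower and 0 higher, with list means of 3.91 to 5.28 in condyle and 5.86 to 5.89 in whole body, and Myl1, a fast muscle myosin chain, read 6.87, 3.30 and 7.41 against 9.67, 9.82 and 9.64 (-3.85 ± 1.10, adjusted p = 0.0638). Of 28 macrophage and leukocyte genes 10 were lower and 0 higher, 5 without condyle array 2 and 16 at most with 1 array left out. In the fit of all 9 arrays, none of 22 endothelial, 27 neuronal, 28 epithelial, 13 fat and 10 glial markers passed limma's threshold. At an unadjusted p under 0.05 the same limma fit gave 1 endothelial, 0 neuronal, 3 epithelial, 1 fat and 1 glial gene higher, and 0, 0, 1, 1 and 1 lower. In limma on the 6 condyle and whole body arrays alone, 5 epithelial genes were called higher and 1 lower, and 1 each of the endothelial, neuronal and glial genes was called higher. The epithelial list mean over the fossa arrays was 7.6, 4.38 and 7.07. The epithelial list was nevertheless higher on average, 6.82 to 7.94 in condyle and 6.32 to 6.47 in whole body. Krt5, the keratin of basal epithelium, read 9.85, 11.15 and 11.38 against 6.44, 6.88 and 6.12 (4.31 ± 1.32, adjusted p = 0.0772), and Krt1, of upper epidermis, 12.11, 13.87 and 12.93 against 11.09, 10.06 and 9.80 (2.66 ± 1.33, adjusted p = 0.24). Choroid plexus genes had 2 of 10 higher, Clic6 and Aqp1, neither after quantile normalization (adjusted p = 0.0684 and 0.0745).

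The condyle arrays differed among themselves in genes of other cell types and of bone and fibrous tissue. The widest range of a list mean over the 3 condyle arrays was that of neuronal genes, 2.45 log2 units (5.93, 4.10 and 6.55), against 0.22 over the whole body arrays. Osteoclast genes spanned 1.4, bone genes 1.38, skeletal muscle 1.37 and macrophage genes 1.34, against 0.12, 0.14, 0.03 and 0.14 in whole body. Over all genes the range of the mean was 0.07. Fibrous tissue genes spanned 1.36, matrix proteases 1.34, cartilage genes 0.96, hypertrophic chondrocyte genes 0.88 and collagen folding genes 0.82. The hypertrophic list was lowest on condyle array 2 and the other 4 on array 3.

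**Figure D4:**
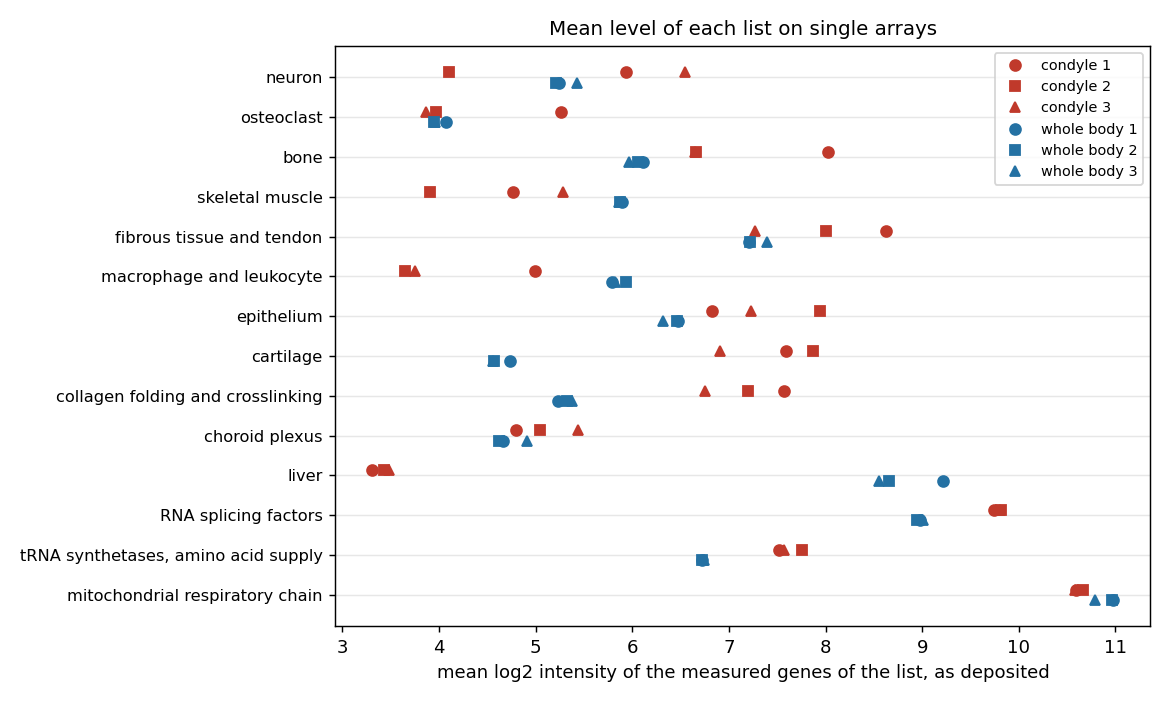
Mean log2 intensity as deposited of the measured genes of 14 lists (horizontal axis) on each condyle array (red) and whole body array (blue), with a circle, square and triangle for arrays 1, 2 and 3. Neuronal, osteoclast, bone, muscle and macrophage lists spread over 1.34 to 2.45 log2 units among the condyle arrays, while the amino acid, splicing and respiratory chain lists are each parted by group.

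Condyle array 1 held the highest levels of bone and osteoclast genes. Mmp9, the gelatinase of osteoclasts, read 10.13, 4.11 and 4.43 on the condyle arrays, Phex, an osteocyte peptidase, 9.18, 3.29 and 4.21, and Mmp13, the collagenase of the hypertrophic zone and of osteoblasts, 9.02, 3.09 and 5.32. Ctsk, the collagen-cleaving cathepsin of osteoclasts, followed at 10.77, 7.32 and 6.70, and the bone collagen gene Col1a1 at 14, 12.05 and 12.01 against 10.61, 10.31 and 10.19 in whole body. The call of Col1a1 (2.31 ± 0.58, adjusted p = 0.0426) was lost after quantile normalization (adjusted p = 0.0586) and in every fit without 1 array, up to 0.112 without whole body array 2. Condyle array 3 held the highest levels of neuronal differentiation genes. Neurod6 read 7.46, 3.77 and 10.92, Insm1 6.91, 4.91 and 11.11 and Neurog2 3.83, 4.14 and 8.85. Dab1, the adaptor of reelin signalling, read 5.08, 2.42 and 8.02, and Ttr, the thyroid hormone carrier of liver and choroid plexus, 9.81, 11.77 and 15.23 against 14.88, 14.69 and 14.77 in whole body. Condyle array 2 alone held Krtap13, a hair keratin-associated protein, at 4.79, 9.24 and 3.29, Cyp2f2, a cytochrome of airway and nasal epithelium, at 2.29, 7.22 and 2.27, and the clone 2310057N15Rik at 2.39, 8.04 and 2.39. These 3 sets of genes were chosen for their spread over the condyle arrays, so no test is given for it, and the part of admixed tissue in the other results was not tested.

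**Figure D5:**
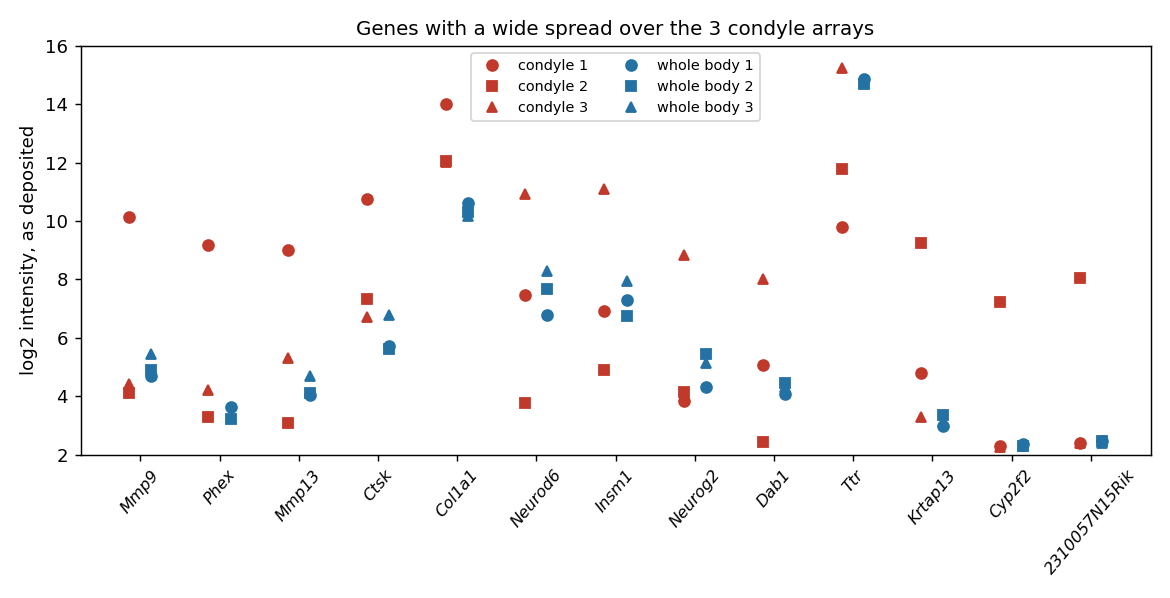
Log2 intensity as deposited (vertical axis) of 13 genes with a wide spread over the condyle arrays (red), beside the whole body arrays (blue), with a circle, square and triangle for arrays 1, 2 and 3. Condyle array 1 is highest from Mmp9 to Col1a1, array 3 from Neurod6 to Ttr and array 2 from Krtap13 to 2310057N15Rik.

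The amino acid, splicing and respiratory chain lists were among those with narrower ranges over the condyle arrays. The splicing list mean spanned 0.08, the amino acid list 0.24 and the respiratory chain 0.08 over the condyle arrays. In each the 3 condyle means lay on 1 side of the 3 whole body means. Chromatin regulators (0.09), hypoxia response (0.13) and glycolysis (0.23) were also narrow and parted in this way.

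Set against the fossa, which shares the condyle arrays with the comparison above, the deposited values gave 3053 genes (16.8%) higher and 387 (2.13%) lower in condyle, and quantile normalization 691 (3.8%) and 485 (2.67%), 6.46% in all. The amino acid list had 17 of 36 genes higher as deposited and 0 after quantile normalization. The splicing list had 27 of 45 and 3, and the respiratory chain 14 of 72 and 0. The shares of all genes were 16.8% as deposited and 3.8% after quantile normalization. Respiratory chain genes lower than in fossa numbered 0 as deposited and 3 after quantile normalization. By name, Pax9 read 6.51, 6.97 and 6.83 in condyle and 2.98, 2.97 and 2.96 in fossa (difference 3.80 ± 0.30, adjusted p = 0.000804). The background limits of the fossa arrays were 3.52, 2.89 and 3.00, so Pax9 lay at or near background there. Tac1, the precursor of substance P, read 8.94, 9.01 and 8.68 against 4.47, 5.65 and 5.49 (3.67 ± 0.29, adjusted p = 0.000855), and Lhx8, a factor of jaw and palate mesenchyme, 7.25, 7.82 and 7 against 4.18, 3.99 and 4.03 (3.29 ± 0.26, adjusted p = 0.00083). All 3 were also called after quantile normalization. Against the whole body Tac1 was higher by 1.70 ± 0.29 (adjusted p = 0.0121) and Lhx8 by 1.74 ± 0.26 (adjusted p = 0.00749; 0.0511 after quantile normalization). Eya4, a transcriptional co-activator, was lower in condyle than in fossa, by -1.89 ± 0.45 (adjusted p = 0.0291). Against the whole body Eya4 was lower by -1.86 (limma adjusted p = 0.0388), a call lost without whole body array 3 (adjusted p = 0.0972), among other arrays. Whether calls against the fossa held with 1 array left out was not looked at.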

How the data were processed

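RNA of 9 samples was measured on Affymetrix mouse arrays. Every sample carries the same label of laser capture, but no label says how a whole body was captured. The deposited values are linear intensity, 1 per probe set and array, from 3.25 to 67158.9, which the authors normalized in a way not given in the sources used here; the submitters' processing notes name limma without a version. The log2 of the deposited intensity was taken with no offset. Of 45101 probe sets, 34945 have 1 gene symbol in GEO's platform annotation, 932 several and 9160 none, and 64 are controls. For each of 18193 genes the probe set with the highest mean was used, 9010 genes having several. An array's background limit was the highest signal of 27 bacterial control probe sets. A gene at or under it on all 3 arrays of a group has only a bound there, and "at least" folds set the brighter group's mean against the dim group's mean after each dim array is set to its background limit, or to the gene's signal where that is higher.

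Differences were tested in limma 3.58.1 (R 4.3.3) on all 9 arrays, with Benjamini-Hochberg adjustment over all genes and a threshold of 0.05, and the script was tested on simulated data. Alternatives were quantile normalization, median centring, filters and a floor on dim genes, the mean of all probe sets, the 6 arrays alone, another variance prior, a replicate block and leaving out each array. The members and gene lists were chosen with earlier results of these data known. Genes named are the 12 largest rises and falls outside the cartilage, liver, erythroid, heart and lens lists that were called on both scales with arrays that did not overlap, up to 5 called and 3 uncalled genes of largest difference per list, a fixed set of markers, the 10 genes of largest spread over the condyle arrays and the 5 largest differences from the fossa in each direction, of which only some are printed. Genes said to be named after their values were seen fall outside this rule. With 3 arrays per group, the number of arrays limits the precision. Promoter sequences are from RefSeq, build GRCm38.p6.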

Additional observations from a re-analysis of the deposited data

How the results depend on the processing

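Quantile normalization gave 824 genes higher and a share of 50.5% higher among called genes, and quantile normalization of genes above background on at least 3 arrays, an alternative added after seeing the data, a share of 54%; the cause was not tested. With 1 array left out, 1470 to 2021 genes differed, 978 to 1306 were higher, 443 to 715 were lower, and 63.1% to 71.6% of those called were higher. Same-numbered condyle and whole body arrays had deviations that correlated at -0.02, 0.09 and 0.03, and other pairs at -0.08 to 0.04. Such values cannot show whether arrays of the same number share an embryo, which no label states. A replicate block gave 1691 differing genes, 1196 higher and 495 lower. With the mean of all probe sets Map1lc3b had a difference of 0.49 (limma adjusted p = 0.169) and Rpl22 one of 0.20 (limma adjusted p = 0.283), both called lower at their brightest probe set. Of 241 named genes called, 60 lost the call after quantile normalization, and 54 to 74 without condyle array 1, 2 or 3 or whole body array 1 or 2. Signal near background limits the size of differences for genes such as Tecr and Prpf8.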
